A study of Homo sapiens with 6 samples.

Results

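The 37 genes of the human mitochondrial chromosome were followed in RNA sequencing libraries of HEK293T cells, a human embryonic kidney line. They were taken by position, as every gene that GENCODE release 29 places on chromosome M, and make up 37 of the 58721 genes in the count table: 2 rRNA genes, 13 mRNA genes and 22 tRNA genes. The comparison was between 3 libraries of wild type HEK293T cells and 3 libraries of HEK293T cells in which ALKBH5 and FTO, 2 demethylases of N6-methyladenosine in RNA, had both been knocked out with CRISPR/Cas9. All cells grew in DMEM with serum, and no other treatment is named. The replicates of each group are described as independent and biological. The wild type columns carry the name HEK293G6, which the labels do not explain. Whether those cells were the parents of the knockout line, and how many knockout clones were used, is not given in the sources used here, so line and genotype cannot be told apart. The RNA is described as cytoplasmic. It came from lysates made with Triton X-100 and cycloheximide and cleared by centrifugation, ribosomal RNA was depleted with a RiboMinus kit, and poly(A) RNA was not selected. The share of mitochondrial RNA that such a lysate releases was not measured. Values are from bulk RNA, in which fewer cells of a type and less RNA per cell cannot be told apart.

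The mitochondrial chromosome is transcribed from both strands into long precursors that cover most of the circle. tRNAs lie between the rRNAs and mRNAs, and their excision at both ends frees the neighbouring RNAs, so genes made in 1 precursor reach different steady levels mainly through later processing, stabilisation and decay. The rRNAs form the small (MT-RNR1, 12S) and large (MT-RNR2, 16S) subunits of the mitochondrial ribosome, and all the mRNAs encode subunits of the respiratory chain or of ATP synthase. Most mitochondrial mRNAs receive short poly(A) tails, which in several of them also complete the stop codon.

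Of the 37 genes, 28 lie on the plus strand of the reference, which carries the transcripts usually called heavy-strand transcripts, and 9 lie on the minus strand, namely MT-ND6 and 8 tRNAs. The genes are packed closely: 20 of 36 neighbouring pairs have no base between them, and 5 pairs share bases. The largest shared stretch joins MT-ATP8 to MT-ATP6, which are translated from 1 mRNA, as are MT-ND4L and MT-ND4. Reads in a shared stretch cannot be given to 1 gene. The ends of MT-ATP8 (chrM:8507-8572, hg38, plus strand) and MT-ND4L (chrM:10740-10766, plus strand) are given 5′ to 3′, as in the GENCODE transcripts, with the 46 and 7 bases shared with the next gene in capitals.
MT-ATP8: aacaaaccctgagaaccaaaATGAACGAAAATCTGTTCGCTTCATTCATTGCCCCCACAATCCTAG
MT-ND4L: cataacctaaacctactccaATGCTAA

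In 6 of the 13 mRNAs the annotated gene ends with only the first letter or letters of a stop codon (MT-ND1, MT-ND2, MT-CO3, MT-ND3, MT-ND4 and MT-CYB), and in 7 the stop codon is complete. The last 30 bases of the 2 mRNAs that rose most and of 2 abundant oxidase mRNAs that fell are shown, because they hold both kinds of ending in each direction, with those letters in capitals: MT-ND2 (chrM:5482-5511, plus strand), MT-CO1 (chrM:7416-7445, plus strand), MT-CO3 (chrM:9961-9990, plus strand) and MT-ND6 (chrM:14149-14178, minus strand).
MT-ND2: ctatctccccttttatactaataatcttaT
MT-CO1: ttcgaagaacccgtatacataaaatctAGA
MT-CO3: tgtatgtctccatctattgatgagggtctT
MT-ND6: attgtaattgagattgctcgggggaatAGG

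The libraries held 5634648 to 7551825 gene counts, so a count of 0 allows a level of up to 0.407 to 0.545 CPM (counts per 1000000 on TMM-scaled library sizes, the level of 3 counts). FTO had 96.5 to 112 CPM in wild type against 53.6 to 61.0 CPM in double knockout, and ALKBH5 had 235.5 to 256 and 186 to 187 CPM. These whole-gene counts do not show whether the remaining transcripts were edited. The HEK293-associated genes KRT8, KRT18, VIM, NEFL and NEFM were at 35.0 to 1161 CPM in all 6 libraries, and PAX2 and LHX1 were low, at 2.18 to 7.33 CPM. All 7 were higher in every double knockout library than in any wild type library, as were 30.3% of the 14180 genes tested below. Among the 7 were VIM (826 to 875 CPM in wild type against 1154 to 1161 CPM), KRT18 (68.3 to 77.7 against 115 to 118 CPM) and NEFM (35.0 to 37.8 against 63.0 to 67.1 CPM). Their part in the results was not tested. PTPRC, CD3E, PECAM1, CDH5 and ALB, markers of blood, endothelial and liver cells, had at most 3 counts in any library.

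Mitochondrial genes took 2.42% ± 0.00855 of the gene counts in wild type against 2.67% ± 0.0771 in double knockout (SD, n = 3 each). Set against the spike-in RNAs instead, the total was 0.990 of wild type, so the rise depends on the scale. That scale rests on only 316 to 440 spike-in counts a library. The labels give the same spike-in doses with 1 µg of RNA for every library, so it is a scale per amount of RNA and not per cell. Within the total, the classes differed in direction. rRNA took 1.42%, 1.40% and 1.40% in wild type (replicates in the order 1 to 3) against 1.78%, 1.84% and 1.68% in double knockout. mRNA took 0.999%, 1.03% and 0.999% in wild type against 0.941%, 0.860% and 0.896% in double knockout. The groups did not overlap in either class, with more rRNA and less mRNA in every double knockout library. tRNA took 0.00442% to 0.00969% and 0.00417% to 0.0109%, and the groups overlapped. Each of the first 3 differences had an exact two-sided permutation p of 0.1, the smallest that 3 against 3 libraries allow. The adjusted p was 0.12 over the 12 shares and ratios compared, some of them chosen after the values were seen. tRNA gave an exact p of 0.8.

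20 of the 37 genes passed the filter on low counts: both rRNAs, all 13 mRNAs and 5 of 22 tRNAs. In the edgeR quasi-likelihood test over all 14180 tested genes, 6 of these 20 rose and 6 fell in the double knockout at an adjusted p under 0.05. Of all tested genes 57.1% changed at that threshold, 28.6% higher and 28.5% lower, so the number of changed mitochondrial genes was near the background. CPM values of the groups did not overlap in 12 of the 20, against 60.6% of all tested genes (30.3% higher and 30.3% lower in the double knockout). No change among the 20 reached 2-fold. The changes of mRNAs ran from -0.32 to 0.51 on the log2 scale (double knockout over wild type) with a median of -0.03, against a median of 0.01 over all tested genes.

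Levels between genes were compared per length, as CPM per kilobase (kb). The libraries were depleted of ribosomal RNA, so the place of the rRNAs among the mRNAs need not be that in the cells. Some genes share sequence with nuclear transcripts, as described below, and its part in this order was not tested. MT-RNR1 had the highest level in wild type, at 6657 ± 47.8 CPM per kb (SD, n = 3), followed by MT-CO3 (6175 ± 152) and MT-RNR2 (5144 ± 44.3). MT-CO1 (1843 ± 34.4) and MT-CO2 (1210 ± 25.4), which with MT-CO3 encode the core of cytochrome c oxidase, came next. MT-CYB, the cytochrome b of complex III, was at 442 ± 5.81 CPM per kb. MT-ND4 (345.5 ± 2.75) and MT-ATP6 (338 ± 6.63) followed, and their libraries overlapped. MT-ND3 was at 224.5 ± 1.45 CPM per kb. MT-ND6 (138 ± 10.6), MT-ND4L (134 ± 10.7) and MT-ND5 (123 ± 1.56) formed a run in which each overlapped the next. MT-ND2 (79.0 ± 2.77) and MT-ND1 (75.5 ± 4.48) overlapped, and MT-ATP8 was lowest, at 55.8 ± 0.58. In the double knockout MT-CO3 (5363 ± 201) lay below MT-RNR2 (5611 ± 290.0), with libraries that overlapped, while MT-ND2 remained in 13th place at 113 ± 4.13 CPM per kb.

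**Figure D1:**
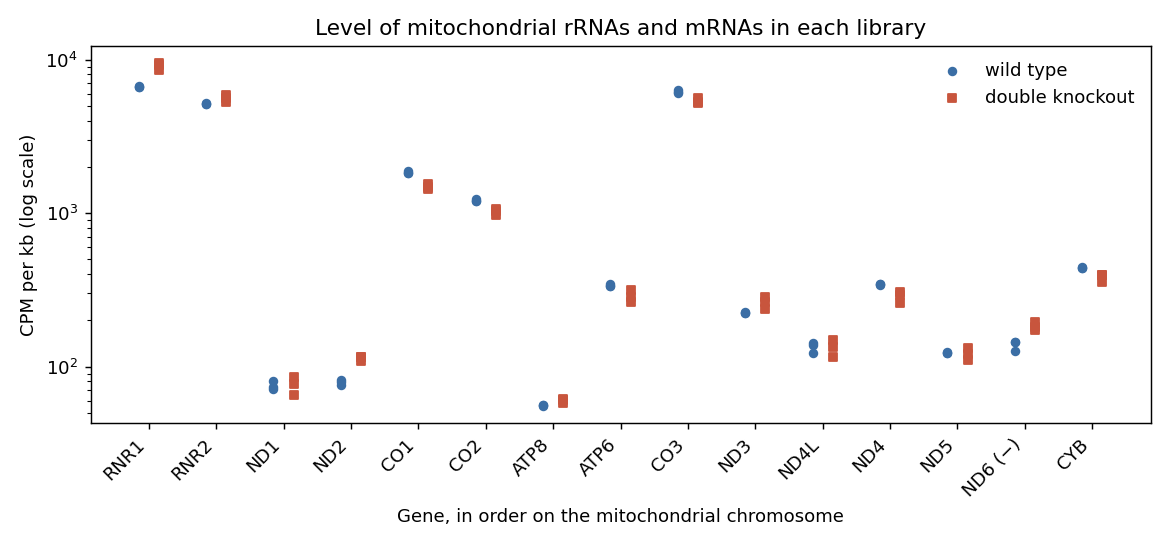
Level of each mitochondrial rRNA and mRNA in each library, in CPM per kb on a log axis, for the 3 wild type libraries (circles) and the 3 double knockout libraries (squares), with genes in chromosomal order and the minus-strand gene marked (−). In these libraries, which were depleted of ribosomal RNA, MT-RNR1 was highest at 6657 and 9106 CPM per kb. MT-ATP8 was lowest at 55.8 and 59.8 CPM per kb.

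Both rRNAs were higher in the double knockout, and by unequal amounts. MT-RNR1 (ENSG00000211459.2, chromosome M, 648 to 1601 of hg38) was at 6302, 6392 and 6359 CPM in wild type (replicates in the order 1 to 3) against 8813, 9042 and 8207 CPM in double knockout. Every double knockout library lay far above the wild type libraries. MT-RNR1 rose by 0.45 on the log2 scale (SE 0.02, edgeR adjusted p = 9.67e-56), a rise of 36.8%. With limma voom the adjusted p of MT-RNR1 was 9.04e-04, the highest of 15 alternatives. MT-RNR2 (ENSG00000210082.2, 1671 to 3229) had 8096, 7962 and 8001 CPM in wild type against 8765, 9191 and 8287 CPM in double knockout. Its groups also did not overlap, but double knockout replicate 3 lay close to wild type. MT-RNR2 rose by 0.13 (SE 0.02, adjusted p = 1.37e-06), a rise of 9.08%. The call of MT-RNR2 was lost with limma voom (0.12, adjusted p = 0.0708) and with scaling to the spike-in RNAs (0.02, adjusted p = 0.875), within a range of 1.25e-15 to 0.875 over 15 alternatives.

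Because both rRNAs start from the same precursor, their ratio was also taken within each library, where scaling between libraries has no part. MT-RNR2 had 1.28, 1.25 and 1.26 counts per MT-RNR1 count in wild type against 0.995, 1.02 and 1.01 in double knockout. The ratio was lower in all 3 double knockout libraries, at 0.797 of the wild type ratio (exact p = 0.1, adjusted 0.12), and lay between 0.792 and 0.804 when any 1 library was left out. Whether the depletion probes bind the mitochondrial rRNAs, and equally in both groups, is not given in the sources used here, and their part in this ratio was not tested.

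Of the 13 mRNAs, 3 rose, 6 fell and 4 did not pass, where 28.6% of all tested genes rose and 28.5% fell. All 3 that rose encode subunits of complex I, the NADH dehydrogenase. MT-ND2 (ENSG00000198763.3, 4470 to 5511) had 85.1, 82.6 and 79.3 CPM in wild type against 120.1, 113 and 120.2 CPM in double knockout. Its groups were well apart, and it rose by 0.51 (SE 0.05, adjusted p = 7.29e-21), or 42.4%. MT-ND6 (ENSG00000198695.2, 14149 to 14673, minus strand), the sole mRNA of the light-strand transcript and one that lacks a stable poly(A) tail, had 65.8, 75.5 and 75.5 CPM in wild type against 103, 94.7 and 90.6 CPM in double knockout. It rose by 0.41 (SE 0.06, adjusted p = 2.05e-12), and no library of either group reached the other group. Its counts may hold reads of the opposite strand, as the strand setting of the counting is not given. MT-ND3 had 78.2, 77.3 and 77.5 CPM in wild type against 98.7, 91.1 and 81.6 CPM in double knockout. Double knockout replicate 3 lay only slightly above wild type, and MT-ND3 rose by 0.22 (SE 0.05, adjusted p = 2.15e-04). With spike-in scaling MT-ND3 had 0.11 (adjusted p = 0.367, the highest of 15 alternatives). The lowest adjusted p, 7.18e-10, came with libraries scaled to mitochondrial mRNA.

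The mRNAs that fell were all 3 of cytochrome c oxidase, with MT-ATP6, MT-ND4 and MT-CYB. MT-CO1 (ENSG00000198804.2, 5904 to 7445), the catalytic subunit of the oxidase, had 2811, 2903 and 2811 CPM in wild type against 2385, 2200 and 2270 CPM in double knockout. MT-CO1 fell by 0.32 (SE 0.03, adjusted p = 4.82e-30), or by 19.6%, with no overlap between the groups. MT-CO3 (ENSG00000198938.2, 9207 to 9990) had 4746, 4975 and 4803 CPM in wild type against 4385, 4094 and 4134 CPM in double knockout, and fell by 0.20 (SE 0.02, adjusted p = 8.18e-15). MT-CO2 had 816 to 848 CPM in wild type against 668 to 730.2 CPM in double knockout, and fell by 0.24. The oxidase mRNAs thus were lower in every double knockout library. MT-ND4, a subunit of the proton-pumping arm of complex I, had 472 to 479 and 357.5 to 420.1 CPM and fell by 0.28 (SE 0.03). MT-ATP6, the subunit of ATP synthase through which protons pass, had 227 to 235.5 and 179 to 216 CPM and fell by 0.23. MT-CYB had 499 to 512 and 408 to 453 CPM and fell by 0.21. Their groups did not overlap either, and double knockout replicate 2 was the lowest library for all 6 of these mRNAs.

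4 mRNAs did not pass. MT-ND1 had 68.8 to 77.0 CPM in wild type against 62.8 to 81.4 CPM in double knockout, a log2 fold change of 0.003 (95% interval -0.12 to 0.12). MT-ND4L had -0.01 (-0.17 to 0.14), MT-ND5 had -0.03 (-0.10 to 0.05) and MT-ATP8, with 63 to 86 counts a library, had 0.10 (-0.17 to 0.37), although its double knockout libraries (12 to 12.65 CPM) all lay above wild type (11.4 to 11.7 CPM). The interval of MT-ATP8 is the widest of the 4. Without double knockout replicate 1 MT-ND5 passed at -0.10 (adjusted p = 0.034). With libraries scaled to mitochondrial mRNA it passed in the opposite direction, at 0.19 (adjusted p = 0.0014). The highest adjusted p of MT-ND5 over 15 alternatives was 0.828.

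**Figure D2:**
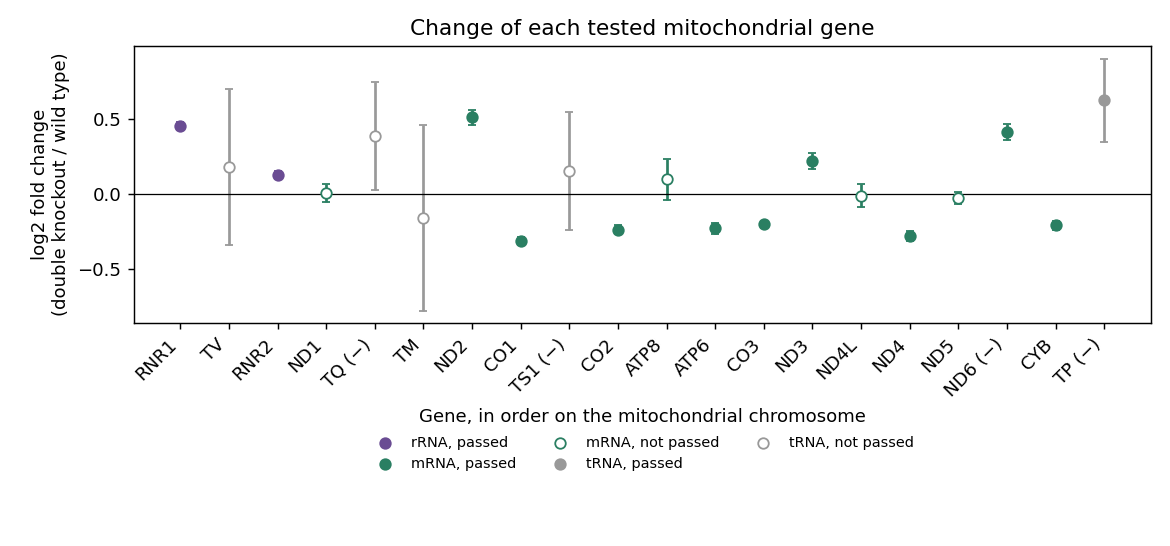
Log2 fold change (double knockout over wild type) of the 20 tested mitochondrial genes in chromosomal order, with bars of 1 standard error from the edgeR fit; filled points passed the adjusted threshold, open points did not, and (−) marks minus-strand genes. Among the plotted plus-strand genes, MT-ND2 at 0.51 is followed by MT-CO1 at -0.32, and MT-CO3 at -0.20 (0.014 when scaled to mitochondrial mRNA) by MT-ND3 at 0.22.

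Read along the plus strand, the direction changed between genes of 1 precursor. After both rRNAs, MT-ND1 did not pass, MT-ND2 was higher and MT-CO1 and MT-CO2 were lower. MT-ATP8 did not pass, MT-ATP6 and MT-CO3 were lower, and MT-ND3 was higher. MT-ND4L did not pass, MT-ND4 was lower, MT-ND5 did not pass and MT-CYB was lower. Across the 13 mRNAs the rank correlation of the log2 fold change with chromosomal order was -0.03. Of the 12 plus-strand mRNAs, 2 rose and 6 fell (median -0.12), and the 1 minus-strand mRNA rose. Among the 6 mRNAs with an incomplete stop codon 2 rose and 3 fell, and among the 7 with a complete one 1 rose and 3 fell. Of 7 complex I mRNAs 3 rose and 1 fell. Over all tested genes 28.6% rose and 28.5% fell. These counts rest on few genes and were not tested against those shares.

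The mRNAs that fell were those with the highest levels. The 6 with the highest level per length in wild type, 338 to 6175 CPM per kb, all fell, and of the 7 at 55.8 to 224.5 CPM per kb 3 rose and 4 did not pass. The same 6 mRNAs were also the highest in the double knockout (285 to 5363 against 59.8 to 261.5 CPM per kb). That division therefore repeats the first grouping and is not a separate result. When libraries were scaled to mitochondrial mRNA, which moved the median of all tested genes to 0.23, the 6 lay between -0.10 and 0.014, all under that median, with MT-CO3 (0.014) and MT-CYB (0.007) above 0. That scaling moved all genes up by nearly the same amount. Their place under the median was thus fixed beforehand and is no check on the division. Across the 13 mRNAs the rank correlation of the log2 fold change was -0.71 with the wild type level, -0.56 with GC content and -0.47 with gene length. These correlations describe 13 genes measured in the same libraries, and the level and the fold change share the wild type values.

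**Figure D3:**
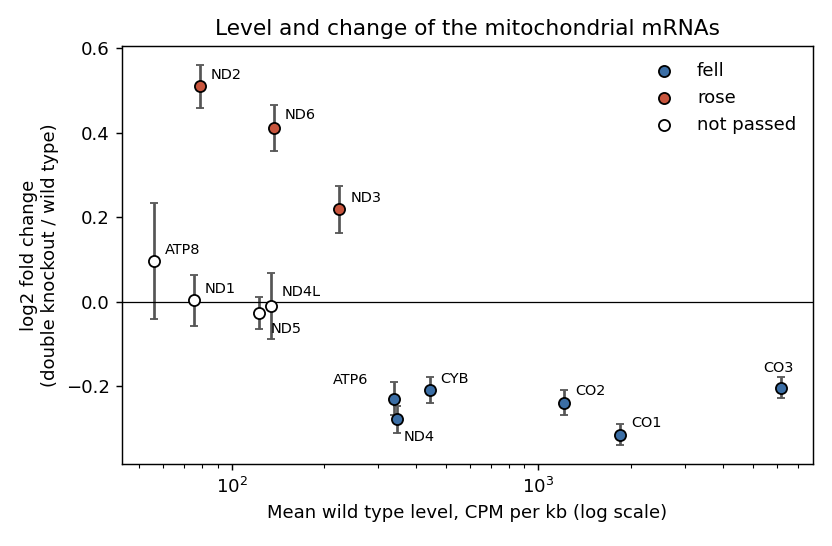
Log2 fold change (double knockout over wild type, bars of 1 standard error) of the 13 mitochondrial mRNAs against their mean wild type level in CPM per kb on a log axis, coloured by the result of the edgeR test. The 6 mRNAs at 338 CPM per kb or more lie between -0.32 and -0.20, and those at 224.5 or less lie between -0.03 and 0.51; scaled to mitochondrial mRNA, MT-CO3 and MT-CYB turn to 0.014 and 0.007.

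Ratios of counts within a library need no scaling between libraries. There were 1.42, 1.36 and 1.41 rRNA counts per mRNA count in wild type against 1.89, 2.14 and 1.88 in double knockout, 1.41 times as many (exact p = 0.1). The part of the ribosomal RNA depletion in this ratio was not tested. MT-ND6 had 0.652, 0.723 and 0.744 counts per 100 heavy-strand mRNA counts in wild type against 1.12, 1.12 and 1.04 in double knockout, 1.55 times as many (exact p = 0.1). The limit on the strand of MT-ND6 reads holds here too. tRNA had 0.431 to 0.970 counts per 100 mRNA counts in wild type against 0.443 to 1.22 in double knockout (exact p = 0.5). In the rRNA and MT-ND6 ratios the groups did not overlap (adjusted p = 0.12 in the exact test), and in the tRNA ratio they did. A further 3 ratios were chosen after the values were seen and are given as a description. They were among the 12 shares and ratios compared, and each had an exact p of 0.1 (adjusted 0.12). Because of that choice, no conclusion is drawn from these p-values. MT-ND2 had 2.82 to 3.03 counts per 100 MT-CO1 counts in wild type against 5.03 to 5.30 in double knockout, 1.78 times as many. In both pairs of mRNA genes translated together, the shorter gene had more counts per count of its partner in the double knockout. The shorter genes themselves, MT-ATP8 (log2 fold change 0.10) and MT-ND4L (-0.01), did not pass, while MT-ATP6 (-0.23) and MT-ND4 (-0.28) fell. Each pair also shares bases, whose reads cannot be given to 1 gene. MT-ATP8 went from 5.02 ± 0.14 to 6.33 ± 0.568 counts per 100 MT-ATP6 counts, and MT-ND4L from 8.38 ± 0.61 to 10.1 ± 0.901 per 100 MT-ND4 counts (SD, n = 3 each).

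**Figure D4:**
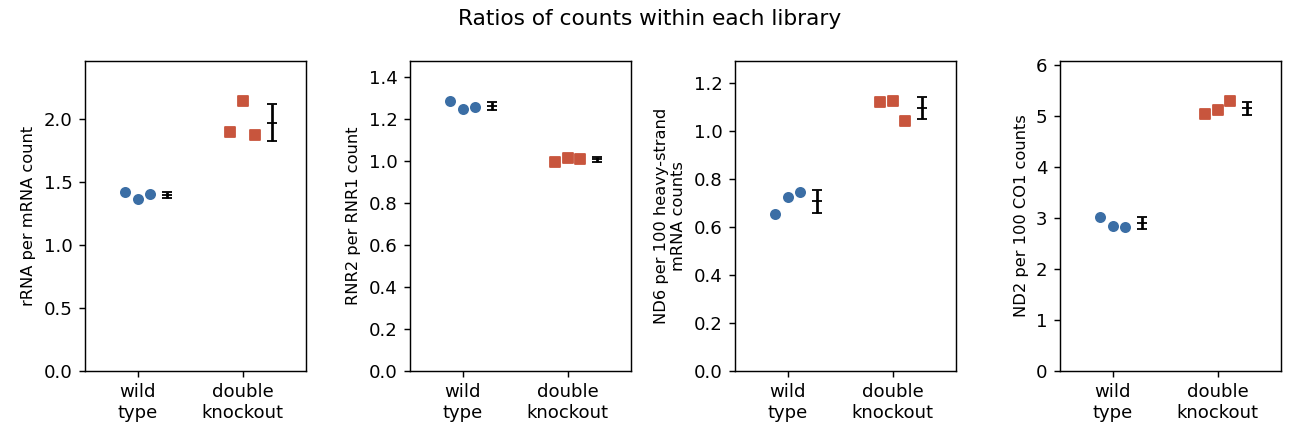
Ratios of counts within each library for 3 wild type (circles) and 3 double knockout (squares) libraries, with the group mean and SD as black bars: rRNA per mRNA, MT-RNR2 per MT-RNR1, MT-ND6 per 100 heavy-strand mRNA counts and MT-ND2 per 100 MT-CO1 counts. The double knockout libraries lie above wild type in 3 panels and below it in MT-RNR2 per MT-RNR1, with no overlap in any.

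When libraries were scaled to the 13 mitochondrial mRNAs themselves, an alternative chosen after the values were seen, the abundant mRNAs stayed near 0 because they make up most of that total. MT-CO1, MT-CO2 and MT-CO3 held 82.6% ± 0.302 of the mRNA counts in wild type against 81.1% ± 0.544 in double knockout. That share was also chosen after the values were seen. On that scale 7 of 13 mRNAs were higher and 0 lower in edgeR at an adjusted p under 0.05, with 1 mitochondrial gene lower at an unadjusted p under 0.05, and of all tested genes 49.9% were higher and 11.6% lower. The counts of calls on that scale follow the shift of all genes and are not a result about the mitochondrial mRNAs. Against the median of 0.23, MT-ND2 was at 0.73, MT-ND6 at 0.63, MT-ND3 at 0.44 and MT-ATP8 at 0.32, while MT-ND1 (0.22), MT-ND4L (0.21), MT-ND5 (0.19) and MT-CO1 (-0.10) lay at or under it. With spike-in scaling the median of all tested genes moved to -0.10, and MT-RNR1 (0.34), MT-ND2 (0.41) and MT-ND6 (0.30) still rose, while the same 6 mRNAs fell, by 0.31 to 0.42. Of all tested genes, 15% were higher and 29.9% lower on that scale.

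For most mitochondrial genes the double knockout libraries varied more among themselves than those of wild type. Of the 15 rRNAs and mRNAs, 14 had a larger coefficient of variation in double knockout, with medians of 5.64% and 1.86%, and the exception was MT-ND6. Over the 5698 tested genes with a mean above 50 CPM the medians were 3.62% and 3.44%, and 2965 had a larger value in double knockout. MT-ATP8 and MT-ND4L (11.55 and 39.9 CPM in wild type) lay under that cut. Some wild type values were below counting error, such as 1.04% for MT-ATP8 with 63 to 86 counts a library. Each value rests on 3 libraries that all the genes share, and the difference was not tested.

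The tRNA genes, which decode the mitochondrial mRNAs, were scarcely counted. All 22 together had 2927 counts over 6 libraries, of which MT-TV and MT-TM, the tRNA genes for valine and methionine, held 82%. MT-TK, MT-TG, MT-TR and MT-TN had 0 counts in all 6 libraries, 7 other tRNA genes had 1 to 20 counts in all, and the next largest after MT-TV and MT-TM, MT-TP, had 122. Of the tRNA genes that did not pass the filter, MT-TH had 51 counts over the 6 libraries, MT-TE 47, MT-TT 41, MT-TY 32, MT-TD 24, MT-TI 21 and MT-TA 18 counts. MT-TS2 had 12, MT-TW 9, MT-TF 8, MT-TC 6, MT-TL1 3 and MT-TL2 2 counts. These 17 genes were not tested. The genes of both leading tRNAs (MT-TV, chrM:1602-1670, and MT-TM, chrM:4402-4469, hg38, plus strand) are printed because their values set those of the class. MT-TV lies between the rRNA genes, and its tRNA is also a structural part of the human mitochondrial ribosome. MT-TM directly precedes MT-ND2.
MT-TV: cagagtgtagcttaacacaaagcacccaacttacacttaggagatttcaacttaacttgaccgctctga
MT-TM: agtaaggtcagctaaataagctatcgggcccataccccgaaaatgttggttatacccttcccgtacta

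MT-TV had 49.5, 25.2 and 59.9 CPM in wild type against 23.3, 56.3 and 67.5 CPM in double knockout. MT-TM had 17.5, 8.42 and 24.7 CPM in wild type against 5.66, 16.0 and 21.4 CPM in double knockout. Both were low in wild type replicate 2 and double knockout replicate 1, so their spread lay within the groups. Neither passed (0.18, 95% interval -1.23 to 1.59, and -0.16, -1.83 to 1.52). The other 20 tRNA genes together ranged only from 11.7 to 18.4 CPM. The share of small nuclear and nucleolar RNAs was also lowest in those 2 libraries, at 0.202% and 0.198% of gene counts against 0.225% to 0.281% in the others, and its part in the tRNA values was not tested. MT-TV had 2.43 to 3 counts per MT-TM count in wild type against 3.15 to 4.12 in double knockout, and that difference was not tested.

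**Figure D5:**
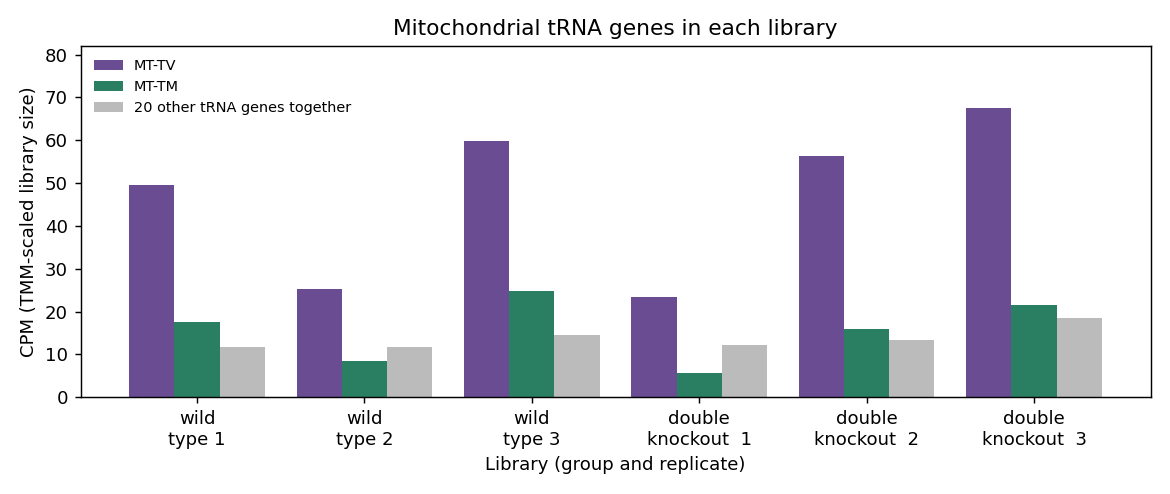
Level of MT-TV, MT-TM and the 20 other mitochondrial tRNA genes together in each of the 6 libraries, in CPM on TMM-scaled library sizes. MT-TV ranges from 23.3 to 67.5 CPM and is low in wild type replicate 2 and double knockout replicate 1, while the other 20 genes stay between 11.7 and 18.4 CPM.

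Among the 3 other tRNAs that passed the filter, 1 passed the test. MT-TP, for proline, on the minus strand, had 12, 18 and 20 counts in wild type against 21, 19 and 32 in double knockout. It rose by 0.62 (SE 0.28, adjusted p = 0.0437), but its groups overlapped. The call was lost in 8 of 14 alternatives, with adjusted p from 0.00537 (libraries scaled to mitochondrial mRNA) to 0.365. Without wild type replicate 1 the log2 fold change was 0.37, without wild type replicate 2 0.60, without double knockout replicate 1 0.68 and without double knockout replicate 3 0.36, and the call was lost each time. MT-TQ and MT-TS1 had 29 to 39 counts a group and log2 fold changes of 0.39 and 0.15 that did not pass.

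Nuclear copies of mitochondrial genes can hide or take reads of the originals. Of 407 annotated copies, 26 had any count, 1524 in all against 993304 counts of the mitochondrial genes. MTATP6P1 (chromosome 1, 633696 to 634376, hg38, plus strand) differs from MT-ATP6 at 10 of 681 bases (98.5% identity), and a window of 45 bases shows how alike they are, with the differing base in capitals (MT-ATP6, chrM:8838-8882, and MTATP6P1, chr1:634007-634051, both plus strand).
MT-ATP6: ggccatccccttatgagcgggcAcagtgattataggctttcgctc
MTATP6P1: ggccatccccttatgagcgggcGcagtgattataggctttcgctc

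MTATP6P1 had 33.7, 35.7 and 39.2 CPM in wild type against 31.6, 27.6 and 25.9 CPM in double knockout, and fell by 0.34 (SE 0.09, adjusted p = 2.04e-04), the direction of MT-ATP6. Its counts were 15.6 per 100 MT-ATP6 counts in wild type against 14.5 in double knockout. MTND2P28 had 24, 24 and 9 counts in wild type against 26, 25 and 35 in double knockout, and rose by 0.70 (SE 0.26, adjusted p = 0.0137), the direction of MT-ND2. Its call was lost without wild type replicate 3 (0.48) or double knockout replicate 3 (0.53), with DESeq2 (adjusted p = 0.0886) and with spike-in scaling (adjusted p = 0.0659), in a range of adjusted p from 0.00756 to 0.127 over 13 alternatives. MTCO1P12 had 58 counts in all and did not pass the filter. Of all 50-base runs in the annotated genes, 49.5% in MT-CO1, 46.7% in MT-ATP6, 43.6% in MT-ND2 and 30.6% in MT-CO3 also occur exactly in an annotated nuclear transcript, against 0% in MT-RNR1, MT-ND3 and MT-ND4L. How multiply aligned reads were counted is not given in the sources used here, and its part in these levels was not tested. With the 7 mRNAs that share no run of 100 bases with a nuclear transcript as the denominator, chosen after the values were seen, rRNA per mRNA was 1.33 times as high in double knockout, against 1.41 with all mRNAs.

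Nuclear genes act at each step of mitochondrial RNA life. Of 62 listed genes 58 were tested, and 5 rose, 17 fell and 36 did not pass (median -0.05, against 0.01 over all tested genes). KIAA0391, FASTKD5, NGRN and RBFA did not pass the filter. FASTKD5, NGRN and RBFA were at 0 CPM in every library, and KIAA0391 was at 0.138 to 0.923 CPM. Whether this reflects expression or the way reads were counted was not tested. The share that fell, 29.3%, was near the 28.5% of all tested genes, and the share that rose was 8.62%, against 28.6%. By role, the share that fell ran from 16.7% (DNA transcription) to 54.5% (RNA processing). The share that rose ran from 0% (stability and decay) to 16.7% (DNA transcription). Of the 6 tested members on chromosome 3, where the median of all genes was -0.44, all 6 fell, and of the 52 on other chromosomes 5 rose and 11 fell. Chromosome 3 members were TRMT10C, TRNT1, PDE12, DHX30, NSUN3 and QTRT2.

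Among 12 tested genes of mitochondrial DNA transcription and replication, 2 rose, 2 fell and 8 did not pass. TFAM, which packages the DNA and opens its promoters, had 208.5 ± 3.76 CPM in wild type against 168 ± 6.06 in double knockout and fell by 0.31 (SE 0.04, adjusted p = 1.79e-13). POLG2, an accessory subunit of the DNA polymerase, fell by 0.37. POLRMT, the RNA polymerase, rose by 0.17, and SSBP1, the single-strand DNA binding protein, by 0.09. The call of POLRMT was lost without double knockout replicate 2 (0.13), and that of SSBP1 without wild type replicate 1 or 3 or double knockout replicate 1 or 2 (0.05 to 0.09). Both calls were also lost with DESeq2 and with spike-in scaling, where SSBP1 turned to -0.02.

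Of 11 tested genes of RNA processing and polyadenylation, 6 fell and 1 rose. TRMT10C, a subunit of the RNase P that cuts tRNA 5′ ends, had 91.6 ± 3.90 CPM in wild type against 50.4 ± 2.00 in double knockout and fell by 0.87 (SE 0.06, adjusted p = 5.72e-39). TRNT1, which adds CCA to tRNAs, fell by 0.93, and GRSF1, an RNA granule protein, fell by 0.46. GRSF1 lies on chromosome 4, where the median of all genes was -0.28. The other 3 fell by 0.19 to 0.40, and FASTK, whose mitochondrial form is required for MT-ND6 mRNA, rose by 0.35. Of 6 tested genes of stability and decay, LRPPRC, which stabilises heavy-strand mRNAs, fell by 0.14 (from 360 ± 11.6 to 327 ± 9.76 CPM) and PDE12, a poly(A)-specific nuclease, fell by 0.41.

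Of 15 tested genes of rRNA modification and ribosome assembly, 4 fell and 1 rose. TFB1M, the methyltransferase of 12S rRNA, had 35.4 ± 2.42 CPM in wild type against 23.1 ± 0.48 in double knockout and fell by 0.61 (SE 0.09, adjusted p = 2.01e-10). DHX30, an RNA helicase, fell by 0.40 and RPUSD4, a pseudouridine synthase of 16S rRNA, fell by 0.31, while RCC1L, a ribosome assembly factor, rose by 0.37. Of 14 tested genes of tRNA modification, 3 fell and 1 rose. QTRT2, a subunit of the enzyme that inserts queuine, fell by 0.84, NSUN3, which methylates mitochondrial tRNA for methionine, fell by 0.63, TRMT61B, an adenosine methyltransferase, fell by 0.45, and PUS1, a pseudouridine synthase, rose by 0.25, a call lost with spike-in scaling.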

How the data were processed

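The deposited values are raw read counts per gene, whole numbers that the authors made with cutadapt 2.10, STAR 2.7.6a and featureCounts on hg38, per the submitters' processing notes. For featureCounts, its version, strand setting and handling of multiply aligned reads are not given in the sources used here, and the kit is strand-specific per the labels, but MT-ND6 reads and reads opposite it cannot be told apart without that setting. All 58721 gene identifiers matched GENCODE release 29. The 4 spike-in rows stayed out of library sizes. Wild type columns were assigned by elimination and replicates by number.

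Counts were fitted in R 4.3.3 with edgeR 4.0.16 (filterByExpr with a minimum count of 10 and a minimum total of 15, TMM, robust glmQLFit, glmQLFTest), two-sided, with Benjamini-Hochberg adjustment over all tested genes at 0.05. The standard error is the size of the log2 fold change over the square root of F. CPM used TMM-scaled library sizes, and limits for a count of 0 cover counting error only. Shares and ratios were tested by exact permutation. The fit was tested on simulated data. DESeq2 1.42.0, limma 3.58.1 voom, other scalings and filters, a replicate block and fits that leave out 1 library were alternatives. Members and lists were chosen with earlier results of these data known. Named genes were all members past the filter, at most 3 genes of smallest p per direction and role on the nuclear list, and the 3 nuclear copies with most counts.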

Additional observations from a re-analysis of the deposited data

Results flagged for a closer look

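The count table holds a spike-in row named Rluc that the labels do not mention and that no comparison used. It had 271 to 378 counts in the 6 libraries, above the 3 counts that a count of 0 allows, with 271 as the lowest value. Groups of 3 libraries were too small for the test of single outlying libraries.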

How the results depend on the processing

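6 to 7 mitochondrial genes fell and 5 to 6 rose when any 1 library was left out. The replicate block gave 5 that rose, without MT-TP (adjusted p = 0.0647), and 6 that fell, and 4054 genes higher and 4055 lower over all genes, and in the shares and ratios an exact sign-flip test that cannot go below 0.25. Same-numbered libraries had correlations of only 0.0106, 0.0166 and 0.0085 after group means were removed. With spike-in scaling, which rests on 316 to 440 counts a library, 3 mitochondrial genes rose, 2133 of all genes rose, 2 of the nuclear list rose, the share of all mitochondrial counts was 0.990 of wild type and that of tRNA 0.968. The cause was not tested. Scaled to mitochondrial mRNA, 10 mitochondrial genes rose and 0 fell, as that total is mostly abundant mRNAs: MT-CO3 turned to 0.014, MT-ND4L to 0.208, MT-ND5 to 0.190 and MT-CYB to 0.007. SSBP1 turned to -0.017 with spike-in scaling. The nuclear list had 3 rises with DESeq2, 9 with total gene counts and 3 to 6 without single libraries, the lowest without double knockout replicate 2. The tRNA share ranged from 0.881 to 1.345 of wild type without single libraries, below 1 without wild type replicate 2 (0.909) or double knockout replicate 3. The calls of MT-RNR1, MT-ND2 and MT-ND6 held in all 15 alternatives. Among these was the scaling to mitochondrial mRNA, which moved all genes up, so a gene that rose could hardly lose its call there. Of the 6 mRNAs that fell, the calls held in all but the scaling to mitochondrial mRNA. Of the tRNAs, 17 did not pass the filter, while MT-TV had 1804 counts over the 6 libraries. Why the tRNA genes differed so in counts was not tested.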
